A study of Mus musculus with 8 samples.

Results

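The Notch genes described here are 10 genes found by symbol among the 24421 genes of the table: the receptors Notch1, Notch2 and Notch3, the ligands Jag1, Jag2 and Dll1, the nuclear effector Rbpj and the target genes Hes1, Hey1 and Hey2. All 10 had reads and all 10 passed the filter on low values, a mean of at least 1 normalized read in at least 1 group. They were followed in sorted cells of the back skin of 4 C57BL/6J mice, every one of which carried the ROSA mTmG reporter and a Cre transgene, named in the series as Tyr:CreERT2. The mTmG reporter gives cells a red membrane protein, tdTomato, and Cre switches them for good to the green EGFP. Tyr:CreERT2 needs tamoxifen to act and is driven by regulatory sequence of the tyrosinase gene, so that EGFP marks melanocytes and tdTomato the mixed remainder of the dissociated skin, including any melanocyte in which Cre did not act. All 4 mice, those without UV included, received tamoxifen daily for 10 days from postnatal day 21 and were shaved and depilated on day 50, and skin was taken on day 54. The 4 groups of 2 libraries were UV EGFP+ and UV tdTomato+ cells, from mice 3 and 4 given UVB at 150 mJ/cm2 for 3 days, and no UV EGFP+ and no UV tdTomato+ cells, from mice 1 and 2 kept under normal light as a mock treatment. Replicates 1 and 2 are mice 3 and 4 with UV and mice 1 and 2 without UV.

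The libraries held 11186363 to 16711981 reads and 11186 to 17076 detected genes, and 1 read was worth 0.832 to 1.43 normalized reads. The sorted labels were checked against defining markers. The 7 melanocyte markers (Mitf, Tyr, Dct, Pmel, Mlana, Kit and Sox10) summed to 387904 to 494011 normalized reads in EGFP+ libraries and 2351 to 31212 in tdTomato+ libraries, and the 5 basal keratinocyte markers summed to 564 to 823 in EGFP+ libraries and 155806 to 209278 in tdTomato+ libraries. Within the tdTomato+ cells the melanocyte markers summed to 17082 and 31212 with UV and to 4677 and 2351 without UV. Both libraries of mouse 1 held at least 477 Xist reads and at most 9 reads of 4 Y-linked genes, against at most 4 and at least 2253 in the other libraries, so mouse 1 differs in sex from mice 2, 3 and 4.

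Notch receptors are membrane proteins that are cut when a ligand on a neighbouring cell binds them. The freed intracellular domain enters the nucleus, joins the DNA-binding protein RBPJ and Mastermind coactivators, and turns on genes such as the Hes and Hey transcriptional repressors. In mouse skin the pathway is known for the differentiation of keratinocytes and the make-up of the hair follicle, and Notch signalling through RBPJ, with Hes1 as a target, is known to keep melanoblasts and melanocyte stem cells of the hair follicle alive. In blood vessels NOTCH3 is the receptor of mural cells, the pericytes and smooth muscle cells.

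The promoters of Hey2 and of the 4 genes whose EGFP+ and tdTomato+ libraries did not overlap are shown, because these genes carry the differences described further on. RefSeq (GRCm38.p6) gave windows from 250 bases before to 50 bases after the start of transcription, 300 bases in all, for 8 of the 10 genes and 10 starts, with no entry for Hes1 and Hey1. Capitals mark GTGGGAA, the core RBPJ site, or its reverse complement TTCCCAC.
Hey2 (chr10:30842734-30843033, minus strand): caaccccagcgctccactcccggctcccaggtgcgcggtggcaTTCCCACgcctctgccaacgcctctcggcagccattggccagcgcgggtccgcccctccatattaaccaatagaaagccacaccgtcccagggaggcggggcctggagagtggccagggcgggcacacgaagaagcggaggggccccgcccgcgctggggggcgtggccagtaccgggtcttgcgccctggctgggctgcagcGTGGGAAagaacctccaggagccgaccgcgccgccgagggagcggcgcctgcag
Notch3 (chr17:32166841-32167140, minus strand): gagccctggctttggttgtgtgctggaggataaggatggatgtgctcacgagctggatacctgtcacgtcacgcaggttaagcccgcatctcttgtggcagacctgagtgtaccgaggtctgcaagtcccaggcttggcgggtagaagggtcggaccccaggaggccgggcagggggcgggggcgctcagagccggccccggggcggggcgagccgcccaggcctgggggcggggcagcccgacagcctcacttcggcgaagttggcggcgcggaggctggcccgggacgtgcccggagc
Jag2 (chr12:112929446-112929745, minus strand): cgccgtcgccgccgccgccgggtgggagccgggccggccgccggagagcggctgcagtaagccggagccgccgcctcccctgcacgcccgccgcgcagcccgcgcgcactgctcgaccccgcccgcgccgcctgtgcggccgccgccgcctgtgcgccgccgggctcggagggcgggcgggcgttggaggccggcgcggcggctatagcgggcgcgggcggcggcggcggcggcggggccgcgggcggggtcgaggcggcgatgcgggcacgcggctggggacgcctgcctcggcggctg
Dll1 (chr17:15376883-15377182, minus strand): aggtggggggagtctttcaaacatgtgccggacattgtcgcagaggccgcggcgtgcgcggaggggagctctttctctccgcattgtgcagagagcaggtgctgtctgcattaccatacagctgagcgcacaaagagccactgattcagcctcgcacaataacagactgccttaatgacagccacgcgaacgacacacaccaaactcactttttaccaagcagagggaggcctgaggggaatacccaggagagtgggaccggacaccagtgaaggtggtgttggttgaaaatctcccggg
Jag1 (chr2:137116471-137116770, minus strand): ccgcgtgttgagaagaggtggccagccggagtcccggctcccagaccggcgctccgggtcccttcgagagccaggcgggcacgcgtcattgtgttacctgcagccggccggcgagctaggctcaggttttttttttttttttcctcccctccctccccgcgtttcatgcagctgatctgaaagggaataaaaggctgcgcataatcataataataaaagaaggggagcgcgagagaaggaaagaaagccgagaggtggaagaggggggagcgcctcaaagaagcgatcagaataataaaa
The Hey2 window held 2 matches to the RBPJ core, TTCCCAC at -207 and GTGGGAA at -4, where each position is that of the first base relative to the start of transcription. None of the 9 other windows held it in either orientation, and 6.38% of 32851 RefSeq promoters of the same length did. The E-box CACGTG, which reads the same on both strands, was in none of the 10 windows, so that no match overlapped an RBPJ core, and in 7.15% of all promoters. GC content ran from 55.7% in Jag1 to 86.0% in Jag2, above the median of 52.7% over all promoters in every window. Dll1 has a pair of RefSeq starts, and the window of the upstream one is shown.

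EGFP+ cells held almost no Jag2, Dll1 or Notch3 RNA and far less Jag1 than tdTomato+ cells, while Notch1, Notch2 and Rbpj were present in both populations at levels whose difference did not pass the test. Over all mice, 5 of the 10 genes passed at an adjusted p under 0.05, and all 5 (Notch3, Jag1, Jag2, Dll1 and Hes1) were lower in EGFP+ cells. Of the 18070 genes tested, 28.9% passed in that comparison, 19.2% on the lower side and 9.66% on the higher. The libraries of the populations did not overlap for 4 of the 10 (Notch3, Jag1, Jag2 and Dll1), all lower in EGFP+ cells, as held for 27.8% of all genes in either direction and 18.0% on the lower side. The median log2 change of the 10 genes was -0.85, against -0.33 over all genes tested. Those values rest on limma (linear models with moderated variances) on log2 of the normalized reads plus 1, adjusted over all genes by Benjamini-Hochberg, and a change is EGFP+ minus tdTomato+ on that scale with its standard error. In a mixed population such as the tdTomato+ cells, fewer cells of a type and less RNA per cell cannot be told apart.

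**Figure D1:**
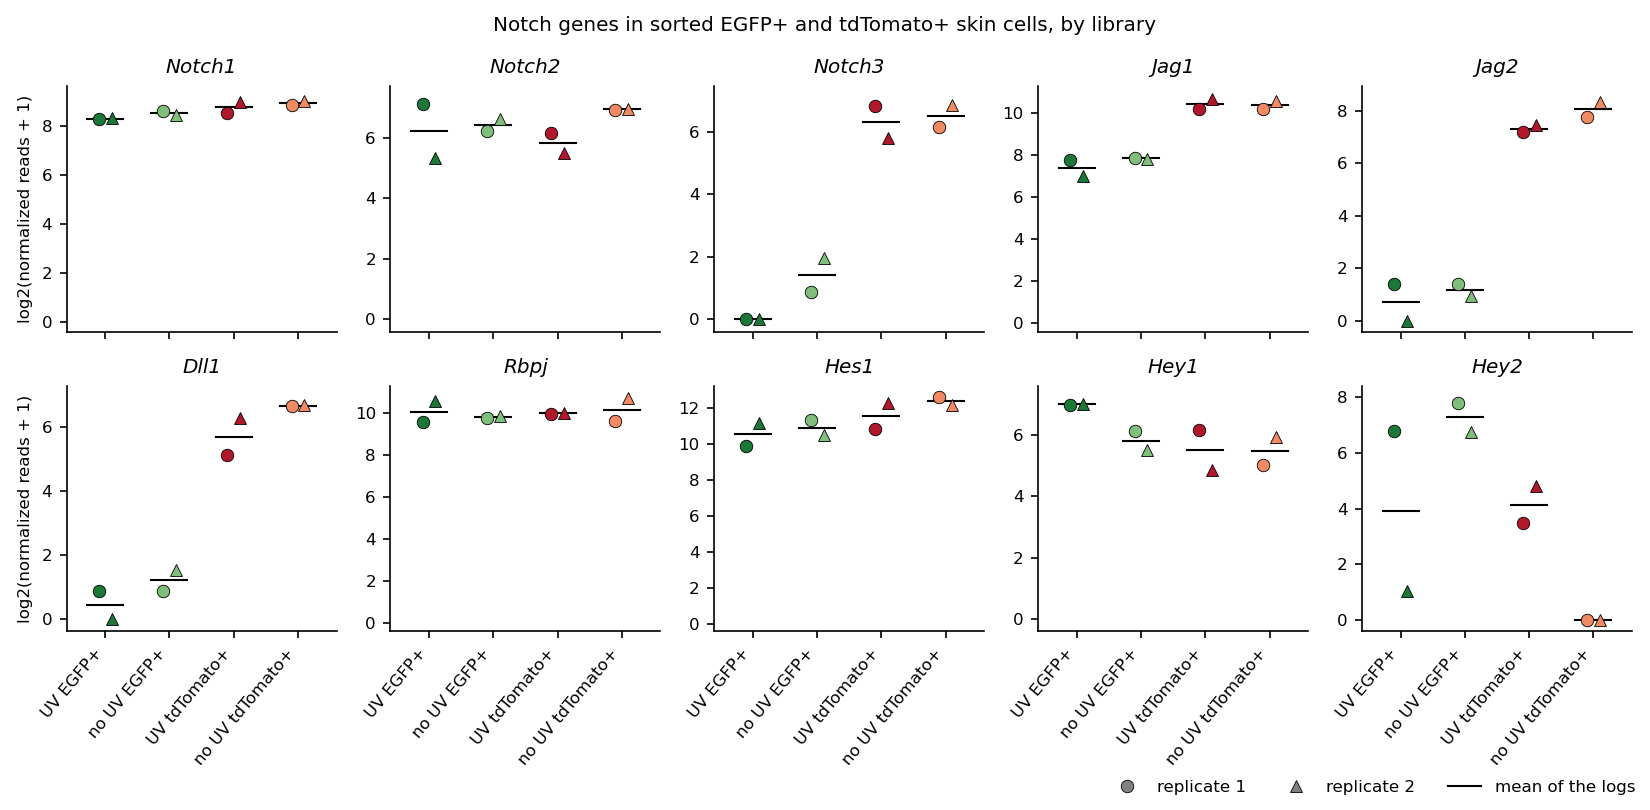
Normalized reads of each of the 10 Notch genes on a log2(value + 1) axis, with 1 point per library (circle for replicate 1, triangle for replicate 2) and a line at the mean of the logs in each group. Notch3, Jag2 and Dll1 lie near the floor in all 4 EGFP+ libraries, and Hey2 is at 0 in both no UV tdTomato+ libraries.

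Among the receptors, Notch1, the receptor best known from epidermal differentiation (chromosome 2, 26457903 to 26516663, minus strand, mm10), had 311 and 319 normalized reads in UV EGFP+ cells, 391 and 354 in no UV EGFP+ cells, 372 and 514 in UV tdTomato+ cells, and 472 and 528 in no UV tdTomato+ cells. The EGFP+ library was the lower of the pair in all 4 mice. Over all mice the populations overlapped, as replicate 1 of no UV EGFP+ cells lay above replicate 1 of UV tdTomato+ cells. Notch1 averaged 344 ± 36.5 normalized reads in EGFP+ and 472 ± 70.4 in tdTomato+ libraries (SD, n = 4 each), and the change of -0.45 ± 0.21 did not pass (limma adjusted p = 0.152). Its exons share 7.50% of their length with 0610009E02Rik and 2.91% with Gm13568 on the opposite strand, and the library kit does not mark strand, so reads of these overlaps cannot be told apart.

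Notch2, the closest paralogue of Notch1 in domain order (chromosome 3, 98013527 to 98150361, plus strand), had 137 and 38.8 normalized reads in UV EGFP+ cells, 74.0 and 97.0 in no UV EGFP+ cells, 69.6 and 43.6 in UV tdTomato+ cells, and 120 and 123 in no UV tdTomato+ cells. The widest spread was between the 2 UV EGFP+ libraries, which differed 3.52-fold and spanned those of every other group. The change over all mice was -0.06 ± 0.51 (limma adjusted p = 0.945), and its sign turned positive under quantile normalization and in some fits that left out 1 library, without passing in any. Gm42820, an entry on the same strand, covers 5.02% of its exon length.

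Notch3, in blood vessels a receptor of mural cells (chromosome 17, 32120820 to 32166852, minus strand), was at 0 reads in both UV EGFP+ libraries. It had 0.832 and 2.85 normalized reads in no UV EGFP+ cells. The values were 113 and 54.7 in UV tdTomato+ cells and 70.4 and 116 in no UV tdTomato+ cells. Every EGFP+ library lay below every tdTomato+ library. Over all mice Notch3 was lower in EGFP+ cells by a change of -5.71 ± 0.75 (limma adjusted p = 7.11e-04), which rests on 4 reads in EGFP+ libraries and 335 in tdTomato+ libraries. With UV the 0 reads in EGFP+ cells, set to a floor of 3 reads over the group, against 182 in tdTomato+ cells put it at least 59.3-fold lower, and without UV the change was -5.10 ± 1.06 (limma adjusted p = 0.0116).

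The summed level of the 5 mural cell markers (Pdgfrb, Rgs5, Acta2, Myh11 and Des) lay on the same side as Notch3 between the populations, as did the keratinocyte markers. It was 0.839 and 0 normalized reads in UV EGFP+ cells, where 4 of the 5 had no read, and 4.16 and 39.9 in no UV EGFP+ cells, where Des had none, against 511 and 88.1 in UV tdTomato+ cells and 448 and 287 in no UV tdTomato+ cells. With UV, replicate 1 of the tdTomato+ cells was the higher in both the mural sum and Notch3 (113 and 54.7 normalized reads). Without UV the 2 went opposite ways in tdTomato+ cells, since replicate 1, with the higher mural sum, had the lower Notch3. The share of mural cells in the Notch3 difference was not tested. An antisense entry, Gm17276, covers 6.03% of the Notch3 exon length.

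All 3 ligands were lower in EGFP+ cells. Jag1, a Jagged ligand of Notch receptors (chromosome 2, 137081456 to 137116644, minus strand), had 212 and 126 normalized reads in UV EGFP+ cells and 230 and 225 in no UV EGFP+ cells, against 1166 and 1626 in UV tdTomato+ cells and 1153 and 1490 in no UV tdTomato+ cells. Every EGFP+ library lay far below every tdTomato+ library. Jag1 was lower in EGFP+ cells by a change of -2.79 ± 0.24 (limma adjusted p = 8.29e-05), a fold of 6.93, with -3.07 ± 0.34 with UV (limma adjusted p = 7.30e-04) and -2.52 ± 0.34 without UV (limma adjusted p = 0.00164).

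Jag1 was the only 1 of the 3 ligands above 3 normalized reads in any EGFP+ library. Jag2, the second Jagged ligand (chromosome 12, 112907819 to 112929776, minus strand), had 1.68 and 0 normalized reads in UV EGFP+ cells and 1.66 and 0.951 in no UV EGFP+ cells, against 145 and 174 in UV tdTomato+ cells and 218 and 323 in no UV tdTomato+ cells. These are 5 reads in the 4 EGFP+ libraries and 795 in the 4 tdTomato+ libraries. The change over all mice was -6.74 ± 0.70 (limma adjusted p = 2.08e-04), the largest fall of the 10 genes. With UV the ratio was 169-fold lower (95% counting interval 46.4 to 1401, 2 reads against 346), and without UV it was 196-fold lower (66.6 to 953, 3 reads against 449), intervals that cover counting error only.

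Dll1, a Delta-like ligand (chromosome 17, 15367354 to 15376872, minus strand), had 0.839 and 0 normalized reads in UV EGFP+ cells and 0.832 and 1.90 in no UV EGFP+ cells, against 33.9 and 77.0 in UV tdTomato+ cells and 99.8 and 103 in no UV tdTomato+ cells. No EGFP+ library reached the lowest tdTomato+ library. The change over all mice was -5.37 ± 0.75 (limma adjusted p = 9.73e-04). With UV the ratio was 117-fold lower (95% counting interval 20.6 to 4669, 1 read against 120) and without UV 75.9-fold lower (25.5 to 372, 3 reads against 174). The opposite-strand entry A930024N18Rik covers 20.5% of the Dll1 exon length.

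Keratinocytes are known to make Jagged and Delta-like ligands in the epidermis, and their markers lay on the same side as the ligands. The 5 suprabasal markers summed to 258 to 470 normalized reads in EGFP+ libraries and 19862 to 64901 in tdTomato+ libraries, and the 5 hair follicle keratinocyte markers to 197 to 509 in EGFP+ and 74093 to 123256 in tdTomato+ libraries. Their part in the ligand differences was not tested.

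Rbpj, the DNA-binding partner of the cut receptors (chromosome 5, 53466152 to 53657362, plus strand), had 763 and 1478 normalized reads in UV EGFP+ cells, 845 and 905 in no UV EGFP+ cells, 988 and 1024 in UV tdTomato+ cells, and 778 and 1636 in no UV tdTomato+ cells. The change over all mice was -0.14 ± 0.29 (limma adjusted p = 0.734), and its sign differed between settings. Spread within groups was as large as that between them, up to 2.10-fold in no UV tdTomato+ cells. The genome holds processed pseudogenes of Rbpj on chromosomes 4 and 6, so its reads are uncertain to the extent that the counting could split them.

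Of the 3 target genes only Hes1 passed over all mice, lower in EGFP+ cells, while Hey1 and Hey2 had positive changes that did not pass. Hes1, a repressor that answers Notch in many tissues (chromosome 16, 30064384 to 30067796, plus strand), had 950 and 2313 normalized reads in UV EGFP+ cells and 2562 and 1450 in no UV EGFP+ cells, against 1850 and 4878 in UV tdTomato+ cells and 6349 and 4537 in no UV tdTomato+ cells. The populations overlapped in replicate 1 of UV tdTomato+ cells. Over all mice Hes1 was lower in EGFP+ cells by a change of -1.25 ± 0.38 (limma adjusted p = 0.0401). That call was the least firm of the 5, as among 8 fits that left out 1 library it held only without replicate 2 of UV EGFP+ cells (limma adjusted p = 0.0354), with an adjusted p of up to 0.237 in the 7 others.

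By UV arm the change of Hes1 was -1.02 ± 0.54 with UV (limma adjusted p = 0.248) and -1.48 ± 0.54 without UV (limma adjusted p = 0.0986). With mouse as a block, which compares EGFP+ and tdTomato+ cells of the same animal, it passed in both arms (limma adjusted p = 0.0117 with UV and 0.00252 without UV). Without UV it also passed with edgeR (adjusted p = 0.0346), DESeq2 (0.0249) and only the libraries compared (0.0176). With UV, Hes1 had 950 normalized reads in EGFP+ against 1850 in tdTomato+ cells of mouse 3, and 2313 in EGFP+ against 4878 in tdTomato+ cells of mouse 4. Without UV it had 2562 in EGFP+ against 6349 in tdTomato+ cells of mouse 1, and 1450 in EGFP+ against 4537 in tdTomato+ cells of mouse 2. The tdTomato+ library was the higher of the pair in all 4 mice.

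Hey1, a Hes-related repressor (chromosome 3, 8663359 to 8667256, minus strand), had 126 and 127 normalized reads in UV EGFP+ cells and 68.2 and 44.7 in no UV EGFP+ cells, against 70.6 and 27.8 in UV tdTomato+ cells and 31.3 and 60.0 in no UV tdTomato+ cells. The UV EGFP+ libraries stood above the 6 others. The change over all mice was 0.92 ± 0.53 and did not pass (limma adjusted p = 0.237), although it passed under quantile normalization at 1.98 (limma adjusted p = 0.0495). With UV it was 1.49 ± 0.74 (limma adjusted p = 0.218) and without UV 0.34 ± 0.74 (limma adjusted p = 0.793).

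Hey2, the third target and a repressor best known from heart and vessels (chromosome 10, 30832359 to 30842801, minus strand), had 110 and 1.08 normalized reads in UV EGFP+ cells and 222 and 105 in no UV EGFP+ cells, against 10.1 and 26.9 in UV tdTomato+ cells and 0 and 0 in no UV tdTomato+ cells. Replicate 2 of UV EGFP+ cells, at 1 read, stood apart from the 3 other EGFP+ libraries and lay below both UV tdTomato+ libraries, including that of the same mouse. That library also had the fewest detected genes, 11186, and fibroblast markers at 246 summed normalized reads, most of it Col1a2, against 8.39 to 125.5 in the 3 other EGFP+ libraries. The part of either in its Hey2 value was not tested. Without UV, 378 reads in EGFP+ cells against 0 in tdTomato+ cells, set to the floor of 3 reads, put Hey2 at least 96.3-fold higher in EGFP+ cells (limma adjusted p = 0.0214). With UV the change was -0.21 ± 1.75 (limma adjusted p = 1.00).

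Over all mice the change of Hey2 was 3.53 ± 1.24 and missed the threshold (limma adjusted p = 0.0649), and without replicate 2 of UV EGFP+ cells it passed at 4.96 (limma adjusted p = 0.00392). The authors' deposited table gives Hey2 a log2 fold change of 3.17 ± 1.25 with an adjusted p of 0.0352 over all 8 libraries. Among 8 fits that left out 1 library, the call without UV held without replicate 1 (limma adjusted p = 0.00171) or replicate 2 of UV EGFP+ cells and was lost without any of the 6 others, with an adjusted p of up to 0.179. In the EGFP+ libraries with Hey2 reads the defining endothelial markers (Pecam1, Cdh5, Kdr, Tie1 and Emcn) summed to at most 2.52 normalized reads, against 31.4 to 727 in tdTomato+ libraries.

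By UV arm, 4 of the 10 genes passed with UV (Notch3, Jag1, Jag2 and Dll1, all lower in EGFP+ cells), where 17.9% of all genes did and 12.9% on the lower side, and 5 passed without UV (the same 4 lower and Hey2 higher), where 19.2% did, 12.5% lower and 6.67% higher. The 2 arms use different mice, and the fit pools the spread of all 8 libraries. Leaving out replicate 1 of no UV EGFP+ cells left 3 of the 5 without UV, since Notch3 (limma adjusted p = 0.0569) and Hey2 were lost. Leaving out replicate 1 of UV tdTomato+ cells ended the call of Notch3 with UV (limma adjusted p = 0.0504), and leaving out replicate 2 ended that of Dll1 (limma adjusted p = 0.0607).

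**Figure D2:**
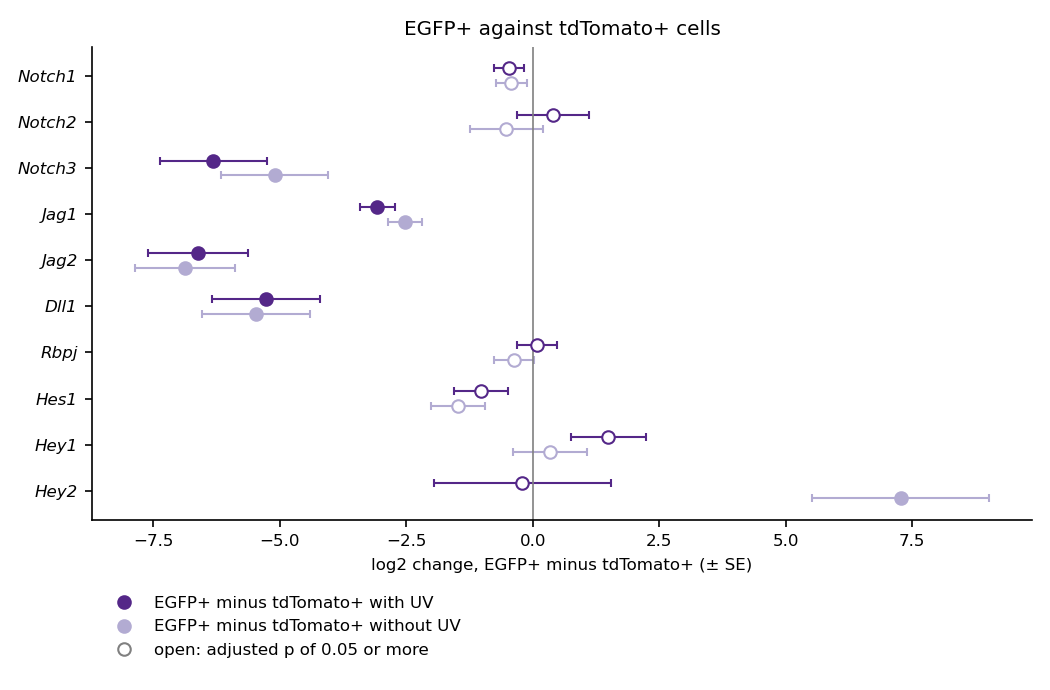
Log2 change of each of the 10 Notch genes, EGFP+ minus tdTomato+ cells, with UV (dark) and without UV (light), with standard errors from the pooled limma fit of 8 libraries; filled points have an adjusted p under 0.05. Jag2, Notch3, Dll1 and Jag1 lie left of 0 in both arms, and Hey2 lies at 7.27 without UV and -0.21 with UV.

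Per kilobase of exon, a scale on which genes can be set side by side, Jag1 was the most abundant of the 3 ligands in both populations. It averaged 34.0 ± 8.36 normalized reads per kb in EGFP+ and 233 ± 40.6 in tdTomato+ libraries (SD, n = 4 each), against 0.154 ± 0.114 in EGFP+ and 30.9 ± 11.2 in tdTomato+ libraries for Jag2. Dll1 had 0.212 ± 0.185 per kb in EGFP+ and 18.6 ± 7.54 in tdTomato+ libraries. Among the receptors Notch1 led in both, with 24.2 ± 2.56 per kb in EGFP+ and 33.1 ± 4.95 in tdTomato+ libraries. Notch2 had 8.04 ± 3.81 per kb in EGFP+ and 8.26 ± 3.62 in tdTomato+ libraries, and Notch3 had 0.114 ± 0.166 in EGFP+ and 10.9 ± 3.77 in tdTomato+ libraries. In tdTomato+ cells the levels of Notch2 and Notch3 therefore overlapped within their spread. Hes1 was the most abundant of all 10, at 893 ± 368 per kb in EGFP+ and 2162 ± 921 in tdTomato+ libraries.

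Across the 4 groups, Notch3, Jag2 and Dll1 had the same order, with no UV tdTomato+ cells highest, then UV tdTomato+, no UV EGFP+ and UV EGFP+ cells. Their EGFP+ groups differ by at most 4 reads, so their order there is not a measured difference. For Notch3 the libraries of the 2 tdTomato+ groups overlapped, and for Jag2 and Dll1 those of the 2 EGFP+ groups did. Notch1 and Hes1 kept that order of means too, but only the 2 EGFP+ groups of Notch1 were apart from each other as neighbours, and no neighbouring groups of Hes1 were. Jag1 was highest in UV tdTomato+ cells, which overlapped with no UV tdTomato+ cells, and Notch2 and Rbpj in no UV tdTomato+ cells, which overlapped with UV EGFP+ cells as the next group of both. Hey1 was highest in UV EGFP+ cells, apart from the next group, and Hey2 in no UV EGFP+ cells, which overlapped with UV EGFP+ cells.

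UV did not move any of the 10 genes past the threshold in EGFP+ cells, where 0.0166% of all genes passed (3 of 18070 by limma). None of the 10 had an unadjusted p under 0.05 either, against 1875 of all genes (10.4%). With edgeR and DESeq2 on the recovered reads 0 of the 10 were called as well. The median change, UV minus no UV, was -0.43 for the 10 genes, or -0.35 with Notch3, at 0 reads with UV, set to the floor of 3 reads, and -0.11 for all genes. Hey1 was the member with the most separated levels, at 126 and 127 normalized reads in UV EGFP+ cells against 68.2 and 44.7 in no UV EGFP+ cells, a change of 1.18 ± 0.74 (limma adjusted p = 0.614). Its groups did not overlap, which held for 33.4% of all genes in this comparison and for 4 of the 10 Notch genes, Hey1 on the higher side (12.7% of all genes) and Notch1, Notch3 (0 reads against 4) and Jag1 on the lower (20.7%).

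The change of Hey2 in EGFP+ cells was -3.34 ± 1.75 (limma adjusted p = 0.551), between libraries at 110 and 1.08 normalized reads with UV and 222 and 105 without UV. That value turned on which UV library was kept, as it was -6.21 without replicate 1 of UV EGFP+ cells (limma adjusted p = 0.0194) and -0.48 at the smallest of the fits that left out 1 library. Notch3 had 0 reads with UV and 4 without UV, Jag2 2 and 3, and Dll1 1 and 3, too few to measure a change by UV, and no fold is given. Jag1 had a change of -0.47 ± 0.34 (limma adjusted p = 0.660) and Notch1 of -0.24 ± 0.30 (limma adjusted p = 0.840).

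In tdTomato+ cells, too, none of the 10 genes passed for UV against no UV, where 0.559% of all genes did (101 of 18070 by limma). At an unadjusted p under 0.05 there was 1 of the 10, Hey2, against 2429 of all genes (13.4%). With edgeR 0 of the 10 were called, and DESeq2 called Hey2 (adjusted p = 0.0495). Hey2 had 10.1 and 26.9 normalized reads with UV and 0 and 0 without UV, 40 reads against none, which put it at least 10.6-fold higher at the floor of 3 reads (limma adjusted p = 0.355). The melanocyte markers moved the same way in these libraries, at 17082 and 31212 summed normalized reads with UV and 4677 and 2351 without UV, and their part in the Hey2 values was not tested. The library of mouse 4, with 26.9, exceeded the EGFP+ library of that mouse, with 1.08.

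Of the other members, Notch2 had 69.6 and 43.6 normalized reads with UV against 120 and 123 without UV, a change of -1.13 ± 0.72 that did not pass (limma adjusted p = 0.558). Notch2, Jag2 and Dll1 did not overlap between the arms on the lower side and Hey2 on the higher, 4 of the 10 genes, where 46.1% of all genes did not overlap, 24.5% lower and 21.6% higher. The summed markers of some other cell types were lower in the same UV libraries without overlap. The hair follicle keratinocyte markers summed to 74093 to 96869 with UV and 112343 to 123256 without UV. The suprabasal markers summed to 19862 to 35366 with UV and 49651 to 64901 without UV. The fibroblast markers summed to 7963 to 11525 with UV and 14123 to 15559 without UV. Not every marker of these lists followed its sum. Pdgfra was higher with UV (66.0 and 242 normalized reads against 28.4 and 37.1). Krt17, Sox9, Krtdap, Sbsn and Dcn overlapped between the arms. The basal keratinocyte sums overlapped too, and the Schwann cell sums were higher with UV (1284 to 1566 against 402.5 to 1032). The part of these markers in the values of the Notch genes was not tested. Hes1 had a change of -0.84 ± 0.54 (limma adjusted p = 0.559) and Jag1 of 0.07 ± 0.34 (limma adjusted p = 0.962), and neither passed. The 2 arms overlapped for both genes.

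**Figure D3:**
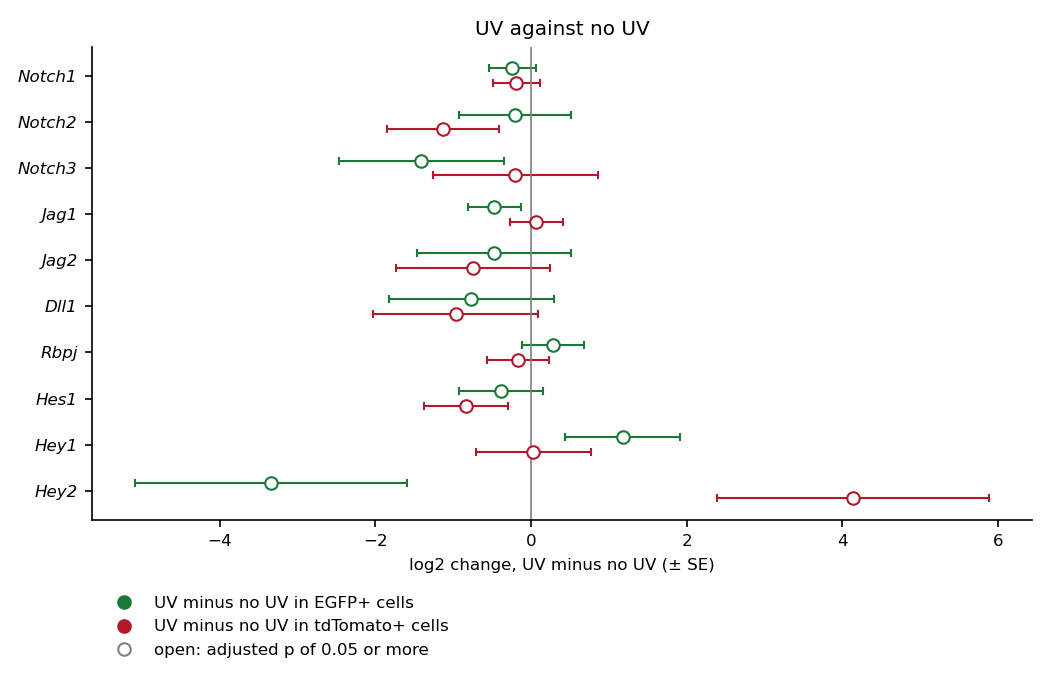
Log2 change of each of the 10 Notch genes, UV minus no UV, in EGFP+ (green) and tdTomato+ cells (red), with standard errors from the pooled limma fit; open points have an adjusted p of 0.05 or more. All 20 points are open, and Hey2 lies at -3.34 in EGFP+ and 4.14 in tdTomato+ cells.

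The UV change in EGFP+ cells minus that in tdTomato+ cells was tested directly, and it passed for none of the 10 genes, where 0.00553% of all genes passed (1 of 18070 by limma). By edgeR and DESeq2 the count was 0 of the 10 as well. At an unadjusted p under 0.05, which 1814 of all genes (10.0%) had, there was 1 of the 10, Hey2. Its difference was -7.48 ± 2.47 (limma adjusted p = 0.389), and it passed without replicate 1 of UV EGFP+ cells, at -10.35 (limma adjusted p = 0.0141). The differences of the 9 others ran from -1.21 for Notch3 to 1.15 for Hey1.

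Other genes of the pathway were taken from lists of 59 genes by role, all in the table, of which 56 were tested. Over all mice 8 of the 56 were higher and 9 lower in EGFP+ cells, beside 9.66% and 19.2% of all genes. Their median log2 change was 0.03, or 0.09 without Dtx1 and Hes5, which had at most 3 reads in either population, against -0.33 over all genes. The split was 12 higher and 7 lower after quantile normalization, and 13 and 6 with the 20 most abundant genes left out of the scaling. With UV 8 were higher and 7 lower, where 5.03% and 12.9% of all genes were, and without UV 5 and 5, where 6.67% and 12.5% were. Leaving out replicate 1 of no UV EGFP+ cells left 6 higher and 5 lower, replicate 1 of UV tdTomato+ cells 6 and 4, and replicate 2 of UV tdTomato+ cells 7 and 4. Dner, Hes2 and Hes3 did not reach the filter.

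**Figure D4:**
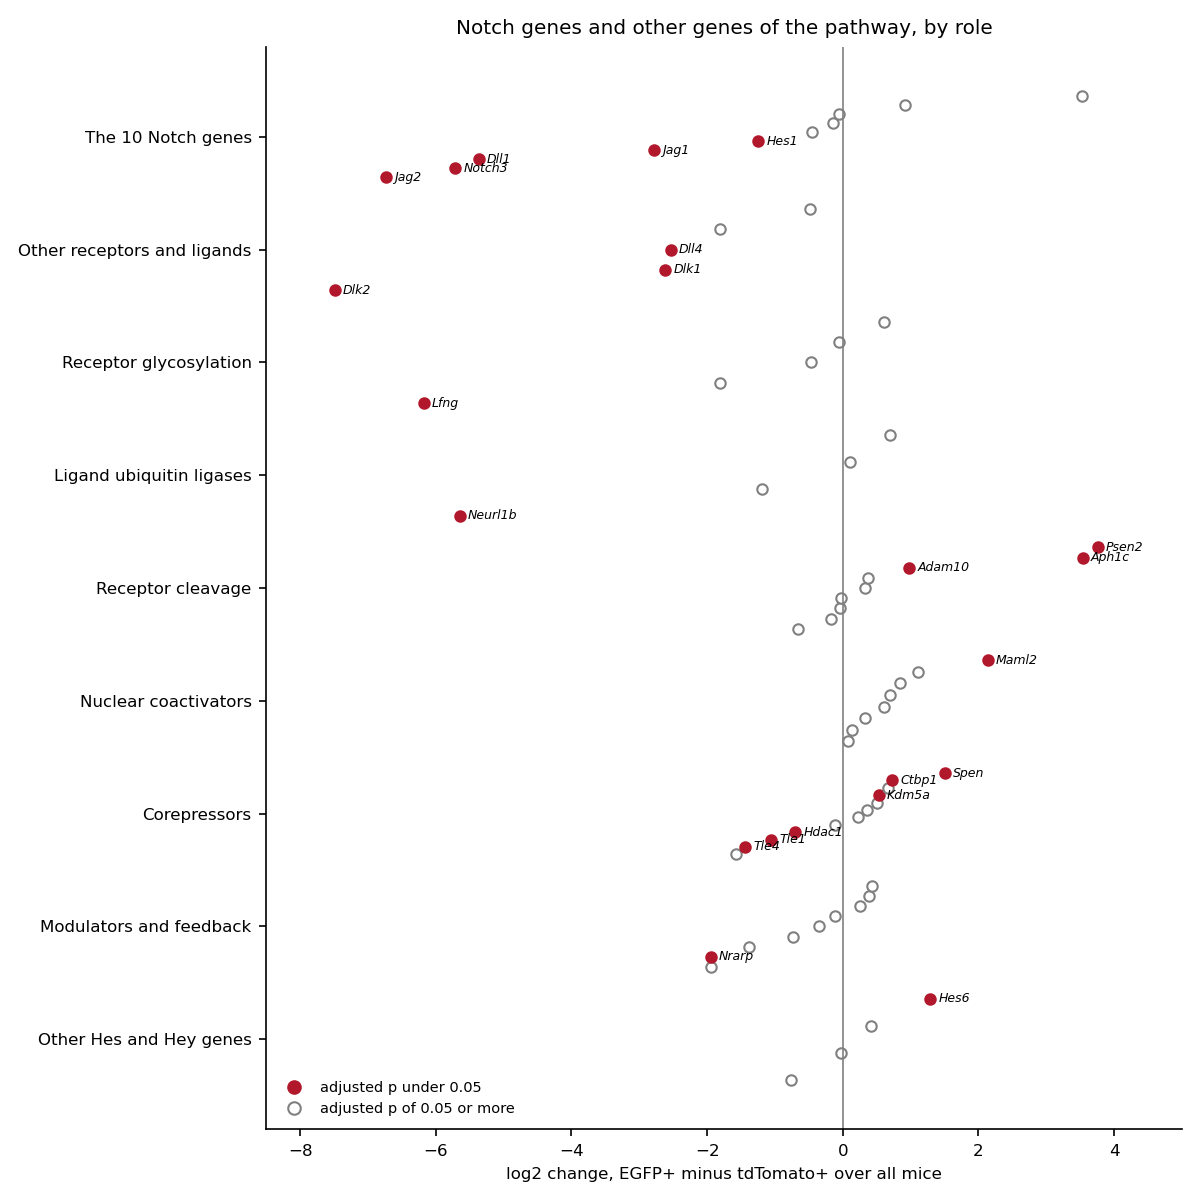
Log2 change over all mice, EGFP+ minus tdTomato+ cells, of the 10 Notch genes and of 56 other genes of the pathway in 8 lists by role; filled points have an adjusted p under 0.05 by limma and are named. Filled points of the ligand, glycosylation and ubiquitin ligase lists lie left of 0, and those of the receptor cleavage and coactivator lists lie right of 0.

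Of the other receptors and ligands 3 of 5 tested fell and none rose. Dlk2, a Delta-like protein that lacks the usual receptor-binding domain, had 0 and 0 normalized reads in UV EGFP+ cells and 7.49 and 0 in no UV EGFP+ cells, against 247 and 324 in UV tdTomato+ cells and 344 and 320 in no UV tdTomato+ cells, a change of -7.49 ± 0.82 (limma adjusted p = 2.71e-04). Dlk1, its paralogue, was lower 12-fold (95% counting interval 3.75 to 61.2) on 3 reads against 32, and its call was lost under quantile normalization, with edgeR and DESeq2, and without any 1 of 6 libraries (the exceptions are replicate 2 of no UV EGFP+ and of UV tdTomato+ cells), at adjusted p values of up to 0.131. Dll4, the Delta-like ligand of endothelium and the third gene called, passed narrowly (limma adjusted p = 0.0493). Whether that call holds in the other settings was not examined. Dll4 had 1 read in EGFP+ cells against 48 in tdTomato+ cells. Its tdTomato+ values were 29.3 and 8.35 normalized reads with UV and 6.85 and 0 without UV. The endothelial markers had the same high library, at 727 summed normalized reads in replicate 1 of UV tdTomato+ cells against 31.4 to 186 in the other tdTomato+ libraries, and their part was not tested.

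Lfng, a Fringe sugar transferase that alters which ligands a receptor answers to, was the 1 of 5 glycosylation genes that fell, with a change of -6.18 ± 0.77 (limma adjusted p = 5.54e-04). It had 0 and 1.08 normalized reads in UV EGFP+ and 9.15 and 0.951 in no UV EGFP+ cells, against 148 and 149 in UV tdTomato+ and 233 and 218 in no UV tdTomato+ cells. Mfng, its paralogue, had 1 read in EGFP+ and 24 in tdTomato+ cells and did not pass (limma adjusted p = 0.154). Among 4 ubiquitin ligases that act on ligands, Neurl1b fell, with a change of -5.65 ± 0.95 (limma adjusted p = 0.00258), while Mib1, which drives ligand uptake, had a change of 0.70 ± 0.45 (limma adjusted p = 0.290).

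Of 9 genes of receptor cleavage 3 were higher in EGFP+ cells over all mice, none was lower and 6 did not pass. Psenen, a small gamma-secretase subunit, was lower in the comparison without UV, at -0.66 (limma adjusted p = 0.0382). Psen2, a catalytic subunit of gamma-secretase, had 2153 and 2717 normalized reads in UV EGFP+ and 1691 and 2372 in no UV EGFP+ cells, against 274 and 321 in UV tdTomato+ and 96.8 and 78.5 in no UV tdTomato+ cells, a change of 3.76 ± 0.21 (limma adjusted p = 7.04e-06). Aph1c, another subunit, rose by 3.54 ± 0.31 (limma adjusted p = 8.72e-05), and the third was Adam10, the protease that makes the first cut. Psen2 was also the only gene of the lists that passed in a UV comparison, higher in UV tdTomato+ than in no UV tdTomato+ cells, as 0.349% of all genes were, by 1.75 ± 0.29 (limma adjusted p = 0.0476). The melanocyte markers were on the same side in these libraries, as given for Hey2, their part was not tested, and among 8 fits that left out 1 library the call held only without replicate 1 of no UV tdTomato+ cells (limma adjusted p = 0.0364), with an adjusted p of up to 0.227 in the 7 others. It was also lost with a pseudocount of 0.1 (0.0794), no filter (0.0536), rescaling (0.0507) and only the libraries compared (0.0940).

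In the nucleus, Maml2, a Mastermind coactivator, was the 1 of 8 coactivator genes that passed, higher by 2.14 ± 0.37 (limma adjusted p = 0.00303), with 357 and 813 normalized reads in UV EGFP+ and 332 and 653 in no UV EGFP+ cells against 110 and 97.4 in UV tdTomato+ and 98.8 and 153 in no UV tdTomato+ cells. Kat2a, an acetyltransferase, had 1.11 ± 0.41 (limma adjusted p = 0.0755), and passed with mouse as a block (0.0129), quantile normalization (0.0490), rescaling (0.0318), edgeR (0.0102) and DESeq2 (0.00969). Of 12 corepressor genes 3 rose (Spen, Ctbp1 and Kdm5a) and 3 fell (Tle1, Tle4 and Hdac1), with Ctbp1 at 0.73 ± 0.14 (limma adjusted p = 0.00438) and Tle4, a Groucho family corepressor, at -1.44 ± 0.29 (limma adjusted p = 0.00649). The Tle4 call was lost without replicate 2 of UV tdTomato+ cells (limma adjusted p = 0.051) or replicate 1 of no UV tdTomato+ cells (limma adjusted p = 0.0506).

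Nrarp, a feedback inhibitor that Notch itself turns on, was the 1 of 9 modulator genes that passed. It had 123 and 138 normalized reads in UV EGFP+ and 245 and 79.9 in no UV EGFP+ cells, against 584 and 554 in UV tdTomato+ and 626 and 377 in no UV tdTomato+ cells, a change of -1.95 ± 0.38 (limma adjusted p = 0.00533). The EGFP+ libraries did not overlap with the tdTomato+ libraries, as held for 27.8% of all genes, 18.0% on the lower side. Within each population the UV and no UV libraries did overlap. The call was lost without replicate 1 (change of -1.93) or 2 (-1.97) of UV tdTomato+ cells or replicate 1 of no UV tdTomato+ cells (-1.77). Hes6, a Hes protein known to oppose HES1, was the 1 of 4 other Hes and Hey genes tested that passed, higher by 1.29 ± 0.22 (limma adjusted p = 0.00281), at 762 and 672 normalized reads in UV EGFP+ and 605 and 429 in no UV EGFP+ cells against 267 and 215 in UV tdTomato+ and 256 and 251 in no UV tdTomato+ cells. Hes7 was at most 6.85 normalized reads in any library and did not pass (limma adjusted p = 0.511).

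Correlations over the 8 libraries, which differ in population and depth, are a description only. Each r includes the difference between EGFP+ and tdTomato+ cells. The log2 levels of Notch3, Jag1, Jag2 and Dll1 ran closely together, with Pearson's r of 0.97 to 0.99 between them. Hes1 followed Notch1 at 0.88 and ran against Hey1 at -0.69, while Hey1 and Hey2 had 0.11. Among all other genes with a mean of at least 5, the most alike were Rnf152 (0.998) and Barx2 (0.996) for Notch3, Iffo2 (0.995) and Nxn (0.995) for Jag1, Cxadr (0.998) and Zfp750 (0.997) for Jag2, and Slco4a1 (0.999) and Hoxa4 (0.996) for Dll1. For Notch1 they were Kif9 (0.971) and Lrrc28 (0.967), and for Notch2 Cd82 (0.983) and Neo1 (0.956). Rbpj was nearest to Syn2 (0.95) and Smim13 (0.944), Hes1 to B9d1 (0.964) and Fbxo36 (0.955), Hey1 to Rab4b (0.970) and Eef2kmt (0.958), and Hey2 to Kdelc2 (0.986) and Ccdc69 (0.979).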

How the data were processed

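The 8 libraries come from EGFP+ and tdTomato+ cells of 4 mice and were prepared with TruSeq RNA v2, which enriches poly(A) RNA and does not mark strand, per the labels' protocols. FastQC, TopHat2 2.0.12, Cufflinks 2.2.1, DESeq2 1.14.1 and mm10 are named in the submitters' processing notes; which program assigned reads to genes, and with which annotation, is not given in the sources used here. Signal values were analysed as deposited by the authors: normalized reads, a whole number of reads divided by 1 size factor per library, since 195368 of 195368 values (100%) came out whole within 0.01. The file headers also name deposited log2 fold changes with errors, a score and p-values from the authors' DESeq2 run of EGFP+ over tdTomato+ cells, which are quoted as the authors' where used.

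The 10 genes and the other lists were chosen with earlier results of these data known. Values went into limma 3.58.1 (R 4.3.3) as log2(value + 1), with 4 group means fitted together and a trended prior. That left 4 residual degrees of freedom, or 8.4 at the median once moderated. The filter (a group mean reaching 1) kept 18070 genes, over which Benjamini-Hochberg adjustment was made, and calls used a threshold of 0.05. Fold changes on this scale understate the change of low genes. The p-values measure the spread between 2 mice per group, pooled over groups. An interval or floor of 3 reads covers counting error only. Alternatives were a pseudocount of 0.1, no filter, quantile normalization, scaling without the 20 most abundant genes, edgeR 4.0.16 and DESeq2 1.42.0 on the recovered reads, only the libraries compared, mouse as a block, and leaving out each library. Mouse pairs EGFP+ with tdTomato+ libraries by the labels; the deviations of paired libraries correlated at 0.0562 (mice 3 and 4) and 0.0873 (mice 1 and 2). Across UV arms a shared replicate number pairs nothing, as the animals differ. The fit was tested on simulated data for EGFP+ against tdTomato+ cells over all mice only. The simulation changed genes well above the floor and had no differences between mice. It does not cover the UV comparisons or genes near 0 reads.

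Named were the 10 genes, up to 2 genes per list with the smallest p over all mice and any called in a UV comparison, and per member the 2 genes of highest Pearson correlation. Of those, Dtx1 had 0 reads in EGFP+ and 3 in tdTomato+ cells. Adam10, Psenen, Dll4, Spen, Kdm5a, Tle1 and Hdac1 were named after their values were seen. Positions and exon overlaps are from GENCODE vM21 (GRCm38).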

Additional observations from a re-analysis of the deposited data

How the results depend on the processing

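Over all mice, Notch3, Jag1, Jag2 and Dll1 were called lower in EGFP+ cells in all 8 fits that left out 1 library and in all 7 other settings. The number of the 10 genes called was 5 over all mice (4 to 6 when 1 library was left out), 4 with UV (3 to 4) and 5 without UV (3 to 5, also with 1 library left out). With mouse as a replicate block it was 5 over all mice, 5 with UV, 6 without UV and 0 for the difference of the UV changes; the block added Hes1 in each arm and changed no other call among the 10. Without UV, Hes1 was also called by edgeR (adjusted p = 0.0346), DESeq2 (0.0249) and with only the libraries compared (0.0176). UV against no UV has no such fit, since each mouse was in 1 arm. The count for UV was 0 (0 to 1) in EGFP+ cells, 0 in tdTomato+ cells but 1 by DESeq2, and 0 (0 to 1) for the difference; each of these calls was Hey2, and the cause was not tested. Hes1 over all mice was not called with a pseudocount of 0.1 (adjusted p = 0.0552), quantile normalization (0.0589) or rescaling (0.0791). Hey2 over all mice was called with a pseudocount of 0.1 (0.0496), quantile normalization (0.00413), edgeR (0.00379) and DESeq2 (1.04e-04). No called change reversed its sign. Quantile normalization moved the median change of all genes over all mice by 0.35, and rescaling by 0.21.

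Genes called over the whole table moved more: 5217 over all mice (3463 to 6594 over all fits), 3240 with UV (993 to 4952), 3468 without UV (1398 to 4494), 3 for UV in EGFP+ cells (0 to 1604, with 120 by edgeR and 361 by DESeq2), 101 in tdTomato+ cells (0 to 1772, with 240 and 629) and 1 for the difference (0 to 1297, with 75 and 291). The highest came without replicate 1 of UV EGFP+ or of no UV tdTomato+ cells. With 2 libraries a group, UV changes of the size seen here could not be told from the spread between mice, and Jag2, Dll1 and Notch3, at 5 reads or fewer in EGFP+ cells, hold too few for a UV change to be measured there.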
